A study of Mus musculus with 6 samples.

Results

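Processed pseudogenes are gene copies made when a messenger RNA is reverse transcribed and inserted back into the genome, so they usually lack introns. They were taken as every gene row of the deposited count table whose biotype is processed_pseudogene, which gave 10000 of 55416 gene rows (18.05%). The data are total RNA libraries from the mouse hippocampus, 3 from mice given ethynyluridine (EU) and 3 from mice given phosphate-buffered saline (PBS) as vehicle. EU replaces some of the uridine in RNA made while it is present and can later be coupled to biotin. Pups received a subcutaneous dose of 50 mg/kg, or the same volume of PBS, daily on postnatal days 3 to 5, and the hippocampus was taken on postnatal day 36. Streptavidin pulldown after coupling to biotin was done on RNA of both groups, so the PBS libraries measure RNA that binds without the label. The study asked which RNAs made in the first days of life were still present a month later. Strain, genotype and sex are not given in the labels, and nothing in them says whether the replicates came from separate animals or from pools, and p-values reflect only how these libraries differ. A pulldown from whole hippocampus mixes all its cell types, and fewer cells of a type cannot be told apart from less RNA per cell.

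Retrotransposition of this kind has copied mainly short, abundant messenger RNAs of the germ line and early embryo, such as those of ribosomal proteins, elongation factors and glycolytic enzymes. Most copies lack a promoter of their own and carry mutations that end the reading frame, while a few are transcribed. A copy that inserted recently differs from its parent, the gene whose messenger RNA was copied, at few bases, and short reads from the parent and from the copy then look alike.

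The parent of each pseudogene was found by aligning its transcript to all protein-coding transcripts in GENCODE release M21 and taking the best match with at least 80% identity over at least 50% of the pseudogene. A parent was found for 7615 of the 10000 pseudogenes, on 2332 parent genes, and 323 of the 7615 had an equally good match to another gene. Where a symbol names its parent (the Parent-ps form), sequence and symbol gave one and the same parent for 606 of 631 pseudogenes. The submitters' treatment of reads that align to several places, and their strand setting, are not given in the sources used for this account. Counts of a pseudogene and of a near-identical parent are therefore uncertain, and so are counts of pseudogenes that lie inside another gene.

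Sequences of 4 pseudogenes show how close an abundant copy can be to its parent and how far a less abundant one can be. They are transcript sequences from GENCODE M21, matched to the table by gene identifier, and the coordinates beside them are those of the table in GRCm39. The first runs through a place where the parent's exons are joined, and capitals mark 10 bases on each side of that join. Gm12338, at chr11:75490589-75490780 on the minus strand, matched Cox7c, a subunit of cytochrome c oxidase, at all 192 coding bases and spans 1 join.
Gm12338: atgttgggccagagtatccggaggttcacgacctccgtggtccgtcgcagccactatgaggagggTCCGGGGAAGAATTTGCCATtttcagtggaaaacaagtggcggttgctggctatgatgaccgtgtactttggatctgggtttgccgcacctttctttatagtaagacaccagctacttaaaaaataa

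The other 3 pseudogenes are shown beside the same stretch of their parent, with capitals at the bases that differ between pseudogene and parent. Gm16378, at chr8:123568470-123568811 on the plus strand, had the smallest p-value of all tested pseudogenes. It differed at 9 of 342 bases from Eif1, an initiation factor in start codon selection, and the 150 bases shown hold 7 of the differences.
Gm16378: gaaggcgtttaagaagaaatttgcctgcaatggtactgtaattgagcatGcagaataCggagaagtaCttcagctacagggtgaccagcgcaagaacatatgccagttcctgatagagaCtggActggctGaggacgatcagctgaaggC
Eif1: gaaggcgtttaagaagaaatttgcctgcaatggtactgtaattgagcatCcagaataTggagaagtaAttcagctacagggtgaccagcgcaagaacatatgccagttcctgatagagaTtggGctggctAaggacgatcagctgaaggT
Gm13456, at chr2:40445764-40447128 on the plus strand, is a copy of Eef1a1, the elongation factor that brings aminoacyl-tRNA to the ribosome. It differed from its parent at 19 of the 1364 bases that were aligned to a base, and 4 of them lie in the 120 bases shown. The full alignment of 1390 positions also held 2 gaps, which lower its identity to 96.8%.
Gm13456: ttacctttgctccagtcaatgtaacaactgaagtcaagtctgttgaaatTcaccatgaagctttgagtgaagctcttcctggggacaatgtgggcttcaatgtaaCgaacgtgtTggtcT
Eef1a1: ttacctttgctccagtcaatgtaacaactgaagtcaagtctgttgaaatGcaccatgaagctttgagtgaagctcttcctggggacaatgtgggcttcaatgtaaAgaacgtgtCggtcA
Gm7045, at chr13:62818113-62818717 on the minus strand, is an older copy of Calcoco2, an autophagy receptor gene. It differed at 48 of 600 aligned bases, 16 of them in the 120 bases shown.
Gm7045: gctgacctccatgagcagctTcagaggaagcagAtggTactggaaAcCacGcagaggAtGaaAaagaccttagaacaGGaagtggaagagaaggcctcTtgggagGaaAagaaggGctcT
Calcoco2: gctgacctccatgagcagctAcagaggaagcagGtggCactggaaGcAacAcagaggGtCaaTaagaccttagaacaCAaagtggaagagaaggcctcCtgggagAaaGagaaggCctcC

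Most processed pseudogenes had no reads. Over the 6 libraries, with totals between 39886723 and 58301239 counts, 6365 of the 10000 pseudogenes had 0 counts and 1500 had between 1 and 5. A count in each of the 6 libraries was found for 898. Together the pseudogenes took 0.170% of all counts, and 10 of them held 21.7% of that sum. The 100 most abundant held 72.3%. A mean level of at least 1 CPM (read count scaled to library size) was reached by 198 pseudogenes and one of at least 10 CPM by 41.

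The level was highest among the copies closest to their parent. Of the 1546 pseudogenes that were 80% to 85% identical to their parent, 14.7% had at least 1 count, and the highest mean level among them was 4.06 CPM. That share was 43.7% at 90% to 95% identity (2018 pseudogenes). At 99.5% identity or more (322 pseudogenes) the share with a count was 86.3% and the highest level 50.3 CPM. These 322 pseudogenes held 54.5% of all pseudogene counts. The same order was seen among pseudogenes whose parent had a mean level of at least 20 CPM, with 15.2% detected in the lowest identity class and 95.8% in the highest. An identical sequence did not always come with reads: 28 of the 133 pseudogenes with 100% identity had 0 counts in every library. Among the 100 most abundant pseudogenes the median identity was 99.6%, 55 had a ribosomal protein parent, and 97 ran through at least 1 exon join of the parent.

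**Figure D1:**
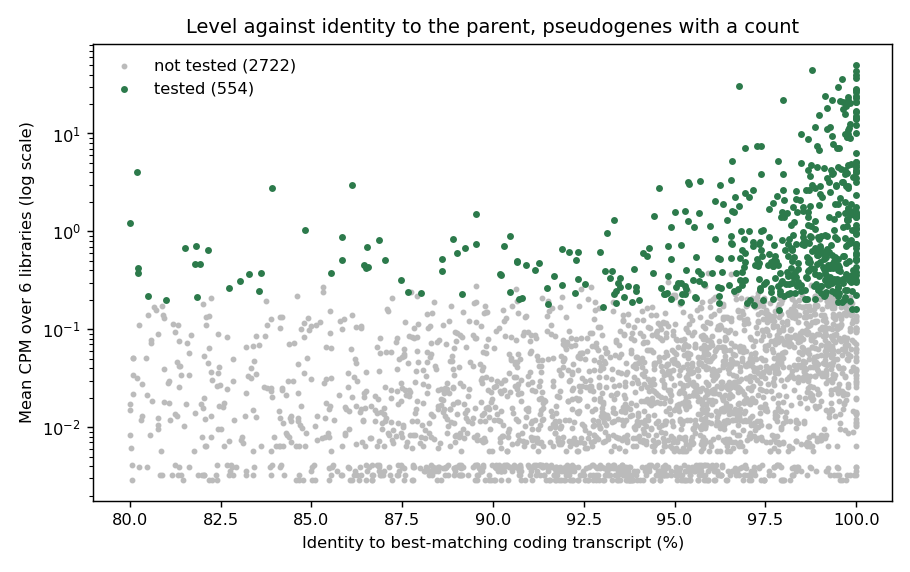
Mean level over the 6 libraries (CPM, log scale) against percent identity to the best-matching coding transcript, for each processed pseudogene with a parent and at least 1 count; green points were tested and grey points were not. The points above 10 CPM all lie at 95% identity or more, and 1 of them, Gm13456 (30.7 CPM), is at 96.8%.

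Levels across the libraries were examined first for all pseudogenes together. The share of a library's counts in processed pseudogenes was 0.155%, 0.163% and 0.170% in EU replicates 1 to 3. It was 0.171%, 0.170% and 0.185% in the PBS replicates. The 3 EU values lay below the 3 PBS values, by a narrow margin between EU replicate 3 and PBS replicate 2. The means were 0.162% ± 0.00759 (SD, n = 3) and 0.175% ± 0.00861 (SD, n = 3), and an exact two-sided permutation test gave p = 0.1, the smallest that 3 against 3 libraries allow (0.15 after Benjamini-Hochberg adjustment over the 3 such tests). Without Rn18s and the mitochondrial genes in the total the groups again did not overlap. Without Gm14303, the pseudogene with the most counts, they overlapped, with a difference of -0.012 percentage points and an exact permutation p of 0.2.

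Relative to their parents, which needs no scaling between libraries, the picture had the same direction. For each 100 counts of the parent genes, EU replicates had 0.960, 1.018 and 1.072 counts of pseudogenes with a parent. The PBS replicates had 1.085, 1.098 and 1.205. Again all 3 EU values were below all 3 PBS values, with a log2 difference of -0.15 and an exact permutation p of 0.1 (adjusted 0.15). The parent sum includes mt-Nd5, a gene of the mitochondrial genome at 4480 CPM, and the ratio over all parents was not computed without it. With parents taken from symbols alone the groups overlapped, at 1.88, 1.93 and 2.07 in EU and 2.05, 2.05 and 2.28 in PBS (exact permutation p = 0.3). The parents themselves took a slightly larger share of the EU libraries, 15.5% to 15.8% against 15.2% to 15.5% in PBS. For pseudogenes and parents of the ribosomal proteins alone, a comparison added after the data were seen, the EU replicates had 11.5, 12.4 and 13.3 pseudogene counts per 100 parent counts and the PBS replicates 13.2, 14.0 and 15.2. These groups overlapped, with a log2 difference of -0.19 and an exact permutation p of 0.2.

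The number of pseudogenes with at least 1 count went the other way and did not separate the groups. It was 2340, 2043 and 2161 in EU and 1986, 1532 and 2285 in PBS, a difference of 247 with an exact permutation p of 0.4 (adjusted 0.4). PBS replicate 2 stood apart with the fewest detected pseudogenes, and without it the difference was 45.8. With all libraries thinned to the smallest total, PBS replicate 2 still had 1501 detected pseudogenes and the other 5 libraries 1914 to 2189. In this library 62 of 585 tested pseudogenes (10.6%) had 0 counts, against 0 to 2 in the other 5, and 7.72% of all tested genes did.

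**Figure D2:**
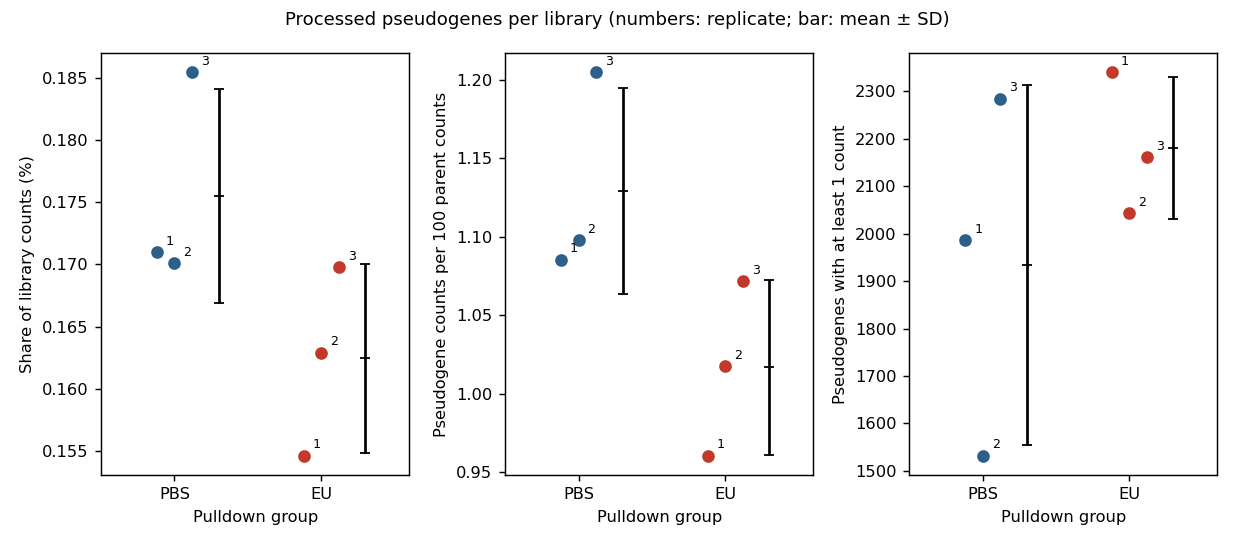
Share of library counts in processed pseudogenes (percent), pseudogene counts per 100 parent counts, and number of pseudogenes with at least 1 count, one point per library for PBS (blue) and EU (red), with replicate numbers and the mean ± SD as a bar. Vertical axes do not start at 0; the EU points lie below the PBS points in the first and second panels, and PBS replicate 2 is lowest at 1532 in the third.

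Cell type markers were summed in each library. The 8 listed hippocampal neuron markers were detected in every library, and their summed level was 1441 to 1624 CPM in EU and 1780 to 1813 CPM in PBS, so the groups did not overlap. All 6 listed neocortex markers were detected, with sums of 318 to 416 CPM in EU and 251 to 323 CPM in PBS, with a small overlap. The 6 choroid plexus markers summed to 760 to 3752 CPM in EU and 1711 to 5386 CPM in PBS. The 4 oligodendrocyte, 4 astrocyte and 4 microglia markers were present in all libraries, and their sums overlapped between the groups. Blood markers were low, at 5.24 to 8.48 CPM, with Alas2 and Hbb-bs detected in all libraries and Hba-a1 and Hba-a2 at 0 in some. The part of tissue composition in the pseudogene values was not tested.

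Single pseudogenes were compared between EU and PBS in edgeR's quasi-likelihood test fitted on all genes with enough counts. That filter kept 18511 genes, of which 585 were processed pseudogenes (5.85% of the 10000), and these 585 held 92.3% of pseudogene counts. Of the genes tested 0 passed an adjusted p of 0.05 (percent called 0), and the smallest adjusted p of a pseudogene was 0.278. At an unadjusted p under 0.05, 20 tested pseudogenes were lower in EU (3.42%) and 1 was higher (0.171%), beside 4.05% of all genes tested lower and 3.84% higher. The share of pseudogenes with lower values was thus near the background, and that with higher values was below it. The 20 became 9, 12 and 13 without EU replicates 1, 2 and 3, and 32 and 33 without PBS replicates 1 and 2. In the same fits the lower count over all genes moved too, to 518, 481 and 545, and to 1040 and 934. The 1 higher pseudogene became 10 without PBS replicate 2 and 14 without PBS replicate 3, beside 1012 and 1117 of all genes. The fits without 1 library tested 640 to 707 pseudogenes and 18989 to 19409 genes. With all 6 libraries the unadjusted counts over all genes were 749 lower and 710 higher. They were 550 lower and 906 higher when libraries were scaled by their totals.

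Levels in the 3 EU libraries were all below those in the 3 PBS libraries for 56 tested pseudogenes (9.57%), beside 7.18% of all genes tested. They were all above for 25 (4.27%), beside 8.52%. Lower values outnumbered higher ones among the 585, by 339 to 246, and the median log2 fold was -0.11. The median was -0.04 without PBS replicate 3 and -0.05 with the replicate number as a block. Over all genes tested the median was 0.01 and 47.8% had lower values. The 75 tested transcribed processed pseudogenes, a separate biotype, had a median of -0.08, and the 38 tested unprocessed pseudogenes, which arose by gene duplication, one of 0.05. The medians of protein-coding genes and lncRNAs were 0.009 and 0.06.

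The lower values were most frequent among abundant pseudogenes. Of the 262 tested pseudogenes under 0.5 CPM, 132 were lower in EU (median log2 fold -0.01). All genes tested in that class had a median of 0.23. Between 1 and 5 CPM 84 of 135 were lower (median -0.13), and between 5 and 10 CPM 19 of 22 (median -0.22), where all genes tested had medians of 0.03 and 0.02. At 10 CPM or more 36 of 41 were lower, with a median of -0.13 beside -0.003 for all genes in the class. Without PBS replicate 3, the library with the largest pseudogene share, 26 of the 41 had lower values.

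**Figure D3:**
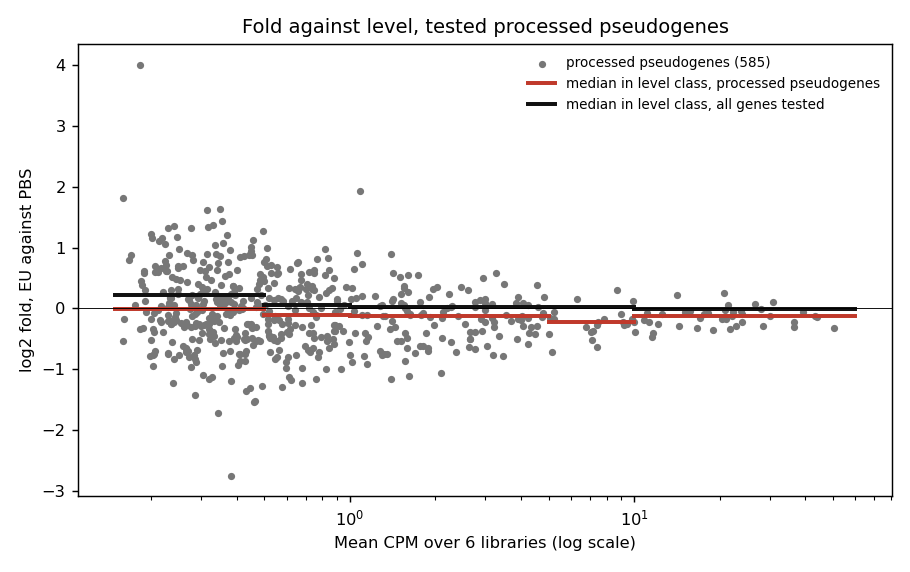
Log2 fold of EU against PBS (edgeR) against mean level (CPM, log scale) for the 585 tested processed pseudogenes as grey points. Horizontal lines give the median in each level class for pseudogenes (red) and all genes tested (black); the red line is below the black one in each class, and at 10 CPM or more the medians are -0.13 and -0.003.

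The same contrast was seen when pseudogenes were set beside their own parents. Among the 546 tested pseudogenes with a tested parent, the fold of the pseudogene was below that of its parent in 331. The median fold was -0.12 for these pseudogenes and 0.03 for their 341 distinct parents. The folds of pseudogene and parent were hardly correlated across the 546 pairs (Spearman's rho 0.05, Pearson's r 0.11). Their levels per kb of transcript were hardly correlated either (rho 0.12). Copies and parents with few or no reads did not pass the filter, so this value does not describe them. Of all 585 tested pseudogenes, 262 lay under 0.5 CPM, where fold estimates are imprecise. Imprecise folds lower a correlation of folds, so it cannot show whether the folds of copy and parent go together. The pairs come from the same 6 libraries, and many share a parent.

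By the parents' roles, ribosomal protein copies were the largest family. The 87 cytosolic ribosomal protein genes with at least 1 copy had 1886 processed pseudogenes, which held 53.9% of pseudogene counts. Of the 181 that were tested 117 were lower in EU and 64 higher (median log2 fold -0.13). Of their 71 tested parents, 49 had higher and 22 lower values (median 0.08). None of these folds passed the adjusted test. The copies kept a median below 0 and the parents one above 0 under each scaling, filter and test tried and without each library, although without PBS replicate 3 only 98 of 181 copies were lower and their median was -0.07, as it was in limma voom. Copies of chaperones and of cyclophilin A, protein-folding genes, gave 8 lower and 3 higher values (median -0.24, and -0.38 without PBS replicate 2), with a median of 0.10 for 4 parents. Copies of respiratory chain and ATP synthase genes gave 16 lower and 6 higher values (median -0.18), with a median of -0.03 for 20 parents. Their copies had 12 of 22 lower values and a median of -0.08 without PBS replicate 3, and a median of -0.10 without EU replicate 3.

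The other families were mixed. The 30 tested copies of glycolytic genes had a median of -0.19, with 18 lower and 12 higher values, which was -0.06 without PBS replicate 2. Their 6 parents had one of -0.03, which was 0.004 without PBS replicate 3. The 22 tested copies of translation factors divided into 12 lower and 10 higher values, with a median of -0.03 that was 0.01 in limma voom and 0.05 with the replicate number as a block. Copies of cytoskeleton genes had a median of 0.08 (11 higher, 6 lower), which was -0.10 without PBS replicate 2. Copies of RNA-binding protein genes had 7 higher and 5 lower values, with a median of 0.20 that was -0.10 under the stricter filter. The 9 tested copies of ubiquitin and proteasome genes had 7 lower and 2 higher values, with a median of -0.12 that was 0.06 in limma voom and 0.04 without EU replicate 1. Copies of high mobility group genes gave 4 values in each direction.

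**Figure D4:**
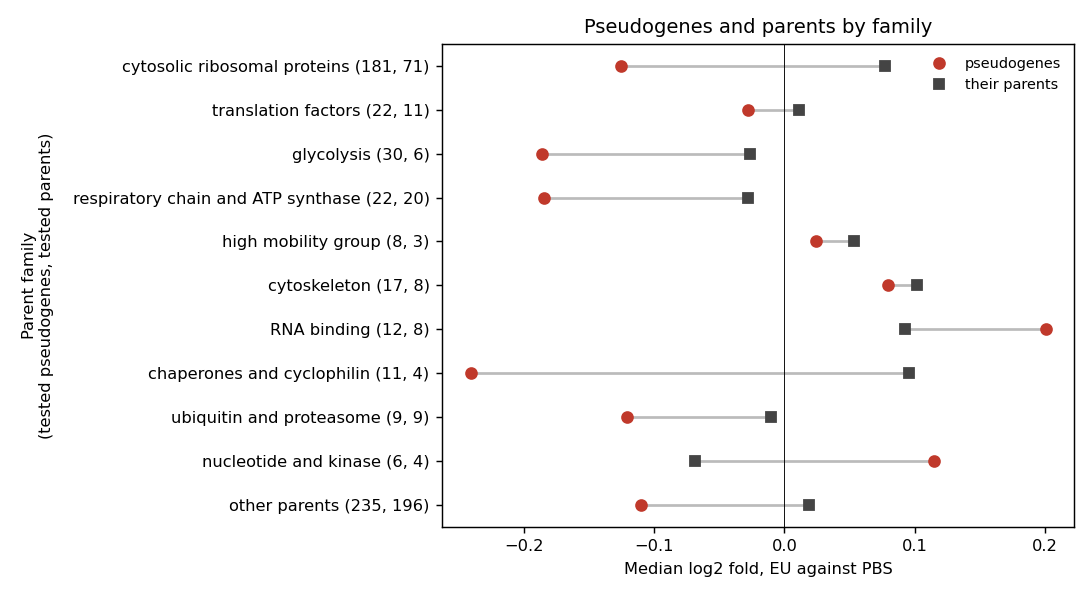
Median log2 fold of EU against PBS for tested processed pseudogenes (red circles) and for their tested parents (grey squares), by parent family; numbers in brackets are tested pseudogenes and tested parents. The 181 ribosomal protein copies lie at -0.13 and their 71 parents at 0.08, and families with few members vary in both directions.

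Among single members, the 10 with the highest level were 7 copies of ribosomal protein genes and 1 each of Cox7c, Eef1a1 and Tpt1, the translationally controlled tumour protein. Gm14303, the pseudogene with the highest level, is a copy of Rps29, a gene of the small ribosomal subunit. It had 43.5, 46.2 and 44.2 CPM in EU and 50.0, 56.1 and 62.0 CPM in PBS. The groups did not overlap, and the EU libraries were the more uniform. Its log2 fold was -0.33 (SE 0.0865), with an adjusted p of 0.320 in edgeR and 0.036 in DESeq2. DESeq2 called it and Gm16378 lower, and no other pseudogene, beside 0.854% of all genes called lower. Rps29 itself had 59.7, 69.3 and 59.4 CPM in EU and 73.4, 83.5 and 64.8 CPM in PBS, which overlap, with a log2 fold of -0.23 (adjusted p = 0.608 in edgeR). Per kb of transcript the copy stood at 294 CPM and the parent at 175 CPM.

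Gm10073, at chr8:107299641-107299982, is a copy of Rplp1, a protein of the large subunit's stalk. It had 39.2, 42.1 and 44.5 CPM in EU and 43.3, 44.4 and 50.6 CPM in PBS, and the groups overlapped. Its parent was lower in all EU libraries, with 189, 190 and 176 CPM against 216, 229 and 210 CPM in PBS. The parent's log2 fold of -0.24 had an adjusted p of 0.273 in edgeR and 0.004 in DESeq2, and the copy's was -0.14. Pseudogene and parent thus had the same sign here.

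Gm12338, the Cox7c copy, had 31.5, 31.8 and 34.3 CPM in EU and 32.8, 46.9 and 41.2 CPM in PBS. The EU libraries lay close together and one PBS library fell among them. Cox7c had 63.8, 56.2 and 58.0 CPM in EU and 50.3, 58.6 and 52.0 CPM in PBS, so copy and parent had opposite signs (log2 folds -0.31 and 0.15, adjusted p = 0.555 and 0.737 in edgeR). Gm12338 overlaps Pitpna on the opposite strand, a phosphatidylinositol transfer protein gene with a mean of 209.9 CPM. Rpl28-ps1, identical to Rpl28 over 414 bases, had 24.4, 25.2 and 27.5 CPM in EU and 31.3, 26.9 and 35.6 CPM in PBS. Its log2 fold was -0.28 (adjusted p = 0.563 in edgeR), while that of its parent was -0.007.

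Gm13456 was the exception among the 10, with higher values in EU. It had 33.8, 30.7 and 30.8 CPM in EU and 29.2, 30.5 and 29.1 CPM in PBS, and the groups were apart by less than the spread within EU. Its log2 fold was 0.10 (SE 0.081, adjusted p = 0.808 in edgeR). Eef1a1 had 1376 ± 66.4 CPM in EU and 1383 ± 93.9 CPM in PBS (SD, n = 3). Per kb of transcript the copy had 0.0292 times the level of the parent. Gm9843 (a copy of Fau), Rpl31-ps8 and Tpt1-ps3 had overlapping groups and log2 folds between -0.12 and -0.02.

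**Figure D5:**
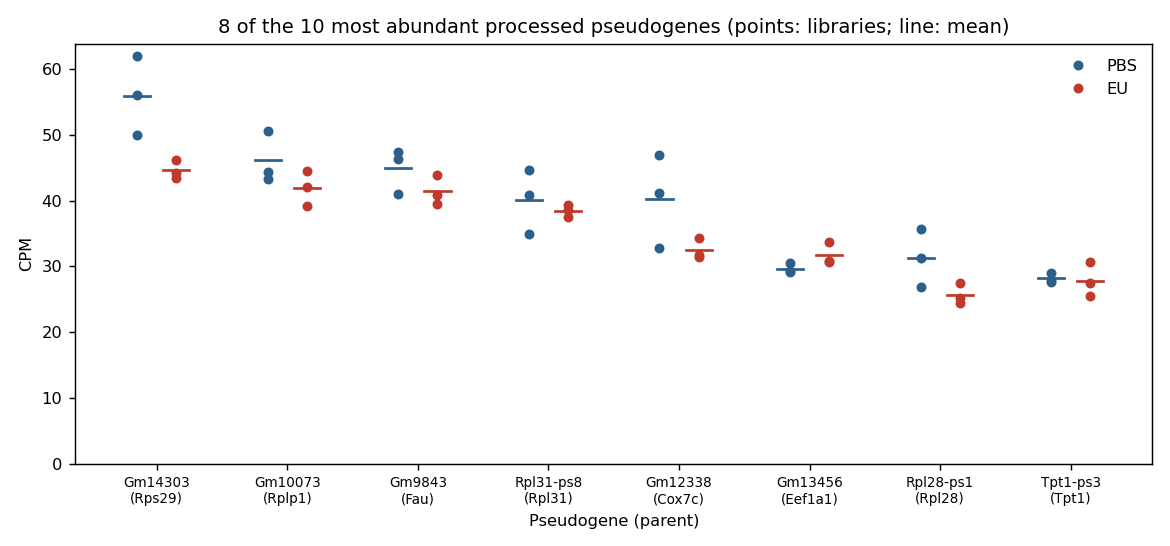
CPM in each library for 8 of the 10 processed pseudogenes with the highest mean level, with the parent in brackets, PBS in blue and EU in red, and a line at each group mean. Gm14303 shows EU values of 43.5 to 46.2 below PBS values of 50.0 to 62.0, and the groups overlap for 6 of the 8, with Gm13456 higher in EU by a small margin.

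Among the 5 pseudogenes with the smallest p and lower values were Gm16378, Gm14303, Gm11478 and Psenen-ps. Gm16378 had 5.59, 6.18 and 5.70 CPM in EU and 9.86, 8.15 and 9.02 CPM in PBS. The groups were well apart, with a log2 fold of -0.63 (SE 0.151) and an adjusted p of 0.278 in edgeR and 0.028 in DESeq2. Its parent Eif1 had 115, 122 and 118 CPM in EU and 130, 137 and 130 CPM in PBS, also without overlap, with a log2 fold of -0.16 (adjusted p = 0.470 in edgeR). Gm16378 overlaps Galnt2l on the same strand, which had 0 counts, and its second closest coding transcript was that of Emd, at 95.9% identity and 22.1 CPM.

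Psenen-ps, identical to Psenen over 306 bases, is a copy of a subunit gene of gamma-secretase. It had 2.35, 2.97 and 2.35 CPM in EU and 3.83, 4.88 and 4.44 CPM in PBS, with no overlap (log2 fold -0.78, adjusted p = 0.382 in edgeR). Its parent had 15.4 ± 2.31 CPM in EU and 15.7 ± 2.2 CPM in PBS (SD, n = 3), a log2 fold of -0.03. Gm11478, a copy of the ribosomal protein gene Rpl13a, had 18.1, 19.4 and 20.2 CPM in EU and 23.1, 24.9 and 24.8 CPM in PBS, with no overlap (log2 fold -0.34, adjusted p = 0.339 in edgeR). It overlaps Vmp1 on the same strand, which had 56.6 CPM and a log2 fold of -0.03. Rpl13a had a log2 fold of 0.04, and Gm45713, an equally close match, had 0 counts.

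On the higher side, Gm7045 had the smallest p. Its counts were 25, 13 and 10 in EU and 0, 0 and 3 in PBS, so it was nearly empty in PBS and low in EU. The fitted log2 fold of 4.01 (SE 1.26, adjusted p = 0.432 in edgeR) rests on these few counts and depends on the prior count of the fit. Calcoco2, its parent, had 2 counts in EU replicate 3 and 0 in the other 5 libraries, and Gm7045 overlaps no other gene row. Gm3699, a 75-base copy of the ribosomal protein gene Rpl41, had 147, 49 and 47 counts in EU and 7, 2 and 66 in PBS. Apoo-ps, an exact copy of 586 bases of Apoo, which encodes a protein of the mitochondrial inner membrane, had 0.989, 1.75 and 1.43 CPM in EU and 0.681, 0.557 and 0.971 CPM in PBS. Its groups were apart by a narrow margin, with a log2 fold of 0.90 (adjusted p = 0.721 in edgeR), and the parent's fold was -0.04. Gm4204, a copy of the histone chaperone gene Nap1l1, and Gm27038, a copy of Rps2, also had non-overlapping higher values, with log2 folds of 0.39 and 0.97 (adjusted p = 0.723 and 0.735 in edgeR).

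Some pseudogenes had more reads than their closest parent, with a mean CPM above that of the parent for 16 tested pseudogenes. These include AA414768, Gm6611 and E530001F21Rik, whose closest parent had 0 CPM, so no ratio is defined for them. Per kb of transcript, 28 of the tested pseudogenes with a parent level above 0 were above their parent. The median per kb ratio over all tested pseudogenes with such a parent was 0.0267. The highest ratio belonged to Gstp-ps, a copy of a glutathione S-transferase pi gene, which had 16.5, 19.1 and 17.4 CPM in EU and 17.4, 17.8 and 20.6 CPM in PBS. Its closest coding transcript was that of Gstp2, at 99.2% identity and 0.0697 CPM, while Gstp1, at 97.6% identity, had 42.4 CPM. The parent by sequence was thus a gene almost without reads, and the second closest an abundant one. Gstp-ps overlaps Traf5 on the same strand (1.45 CPM). Gm20008, only 80.2% identical to the zinc finger gene Zfp268, had 4.06 CPM over the 6 libraries, Zfp268 had 0.0597 CPM, and the pseudogene overlaps no other gene row. Gm17743 and Gm18981, copies of the nuclear receptor gene Nr5a2, had 0.423 and 0.232 CPM while Nr5a2 had 0.0243 CPM. Gm18981 overlaps Cacna1c on the same strand, which had 192.6 CPM, so its few reads may belong to that gene. Gm17743 overlaps no other gene row. None of Gstp-ps, Gm20008, Gm17743 and Gm18981 had a log2 fold beyond its standard error, with values of -0.08, 0.09, -0.50 and 0.09.

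Of the members named for their parents, those with the highest levels had mostly small folds. Psenen-ps and Apoo-ps, at lower levels, had log2 folds of -0.78 and 0.90. Rps16-ps2, identical to Rps16 over 441 bases, had 18.9, 20.8 and 19.8 CPM in EU and 21.1, 22.8 and 23.3 CPM in PBS, with no overlap (log2 fold -0.18, adjusted p = 0.722 in edgeR). Rpl38-ps2, Mif-ps4, Rpsa-ps10, Rps13-ps2 and Rpl3-ps1, with mean levels of 20.4 to 26.6 CPM, had overlapping groups and log2 folds between -0.17 and 0.07. Tested pseudogenes with 0 counts in a library tie for the largest ratio of highest to lowest library inside a group. The 5 of them with the highest level in any library were taken, and for Gm36298, Gm6344, Gm10493 and Gm12276 the library at 0 was PBS replicate 2. Gm36298 had 87, 68 and 66 counts in EU and 101, 0 and 116 in PBS. Gm19046 had 0 counts in PBS replicate 1, 47 in replicate 2 and 6 in replicate 3.

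The parents with the most tested copies were Gapdh, Rpl29 and Eef1a1. Gapdh, a glycolytic enzyme gene, had 208 processed pseudogenes, of which 115 had a count and 23 were tested. Gm7336 led them with 154, 180 and 161 counts in EU and 176, 163 and 284 in PBS, a mean of 3.96 CPM at 99.8% identity. The other 22 lay between 0.184 and 0.764 CPM at identities from 80.2% to 100%, and Gm10359, the copy with 100% identity, had 0.606 CPM. Fold values ran from -2.75 to 1.45, with 15 lower and 8 higher, and the 23 tested copies together had 1.48% of the parent's CPM. The lowest fold was that of Gm4335, with 6, 5 and 2 counts in EU and 15, 59 and 18 in PBS (adjusted p = 0.473 in edgeR).

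Rpl29, a ribosomal protein gene, had 116 copies, 50 of them with a count and 7 tested, at 0.240 to 2.13 CPM. Of the 7, 4 had higher and 3 lower values in EU, within log2 folds of -0.22 and 0.64. Eef1a1 had 21 copies, of which 18 had a count and 7 were tested. Here 1 copy stood apart: Gm13456 had 30.7 CPM, the next, Gm6548, had 2.27 CPM, and the other 5 lay between 0.229 and 0.751 CPM. The identities of these 7 copies were close together, from 93.9% to 97.3%, and that of Gm13456 was 96.8%.

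Some pseudogenes overlap other genes, and reads of the other gene could then not be told apart from theirs. No other gene row overlapped 7125 of the 10000 pseudogenes, which held 63.3% of pseudogene counts. Another 1132 overlapped a gene on the same strand and held 16.0%, and 1743 overlapped one on the opposite strand only and held 20.6%. A count was found for 31.9% of the pseudogenes without overlap and 64.3% of those that overlap a gene on the same strand. The median log2 fold of tested members was -0.13 without overlap (207 lower, 132 higher), -0.02 with overlap on the same strand (82 lower, 75 higher) and -0.09 on the opposite strand (50 lower, 39 higher).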

How the data were processed

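RNA from the pulldown of 3 EU and 3 PBS hippocampus samples was sequenced as total RNA, and the titles gave each sample's group. The authors deposited unnormalized read counts, 1 row per gene. The submitters' processing notes name featureCounts 2.0.1, STAR 2.7.10b, bcl2fastq 2.20.0 and the build GRCm39. Annotation release, strand setting and the handling of reads with several alignments are not stated there. The 92 spike-in rows had 0 counts and were left out. No column of another sample was present (0 columns).

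Parents were assigned with blastn 2.17.0 (e-value 1e-10, plus strand, highest bit score) from GENCODE M21 transcripts matched by identifier, which gave 9944 of 10000 pseudogenes and for 8976 the length of the table's row. That annotation is of an older build, so none of its coordinates were used. Levels per kb divide by the length of the pseudogene's transcript and of the parent's best-matching transcript. Overlaps with other gene rows were taken from the table's coordinates.

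The test over genes was that of edgeR 4.0.16 under R 4.3.3 (filterByExpr, TMM scaling, quasi-likelihood F test, two-sided, Benjamini-Hochberg adjustment over the 18511 genes, threshold 0.05), with treatment as the only term. CPM use TMM-scaled totals. On simulated counts for 17854 genes it called 24 of 73 genes given a 1.5-fold change. At a 2-fold change it called 39 of 69, and at a 4-fold change 44 of 55. False calls numbered 15, a larger share of all calls than the threshold of 0.05. The simulation gave a gene the same spread in every library, so it held none like PBS replicate 2. These figures may therefore not hold for the real libraries. Sums per library were compared by exact permutation tests, which cannot go below 0.1 with 3 libraries a group. Alternatives were other scalings, no filter, a stricter filter (60 counts in all, and 1 CPM or more in 3 or more libraries), DESeq2 1.42.0, limma 3.58.1 (voom), robust estimation, a replicate block and leaving out each library. Named members are the 10 with the highest level, the 5 with the smallest p in each direction, the 5 highest per kb against their parent, those named after the parent by level (up to 10), and the 5 with the largest spread within a group (ties ordered by highest level). All library pairs differed by more than sampling noise (chi-square of at least 7.16 per degree of freedom). Some members that this rule names are not reported here. Members, families, marker lists and rules were chosen with earlier results of these data known.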

Additional observations from a re-analysis of the deposited data

How the results depend on the processing

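At this depth 585 of 10000 pseudogenes could be tested, and a difference in the others was not detectable. Processed pseudogenes past the threshold numbered 0 in each setting except DESeq2, which called 2. Over all genes the 0 became 248 with no filter on low counts, 288 in DESeq2 and 12 in limma voom, and 0 to 20 without 1 library (20 without PBS replicate 2). The median log2 fold of tested pseudogenes was 0.08 with no filter, where nearly empty rows enter, -0.024 in limma voom, and -0.14 to -0.043 without 1 library. The difference in detected pseudogenes was -6.33 at a minimum of 5 counts. With no filter, 53 of 3635 pseudogenes had an unadjusted p under 0.05 and a lower value, and 27 a higher one. Beside them, 1032 of all 31108 genes were lower and 1321 higher. Without 1 library, 9 to 33 pseudogenes were lower and 0 to 14 higher, beside 481 to 1040 and 361 to 1117 of all genes. Share and ratio kept their direction in each alternative, but the groups overlapped without Gm14303 for the share and with parents by symbol or ribosomal protein parents alone for the ratio. Causes were not tested.

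The labels do not say whether libraries with the same replicate number are paired. The deviations of same-numbered libraries correlated at 0.14, -0.01 and 0.15, and those of differently numbered ones at -0.19 to 0.085. So few values cannot decide whether the libraries are paired. With the replicate number as a block 18 genes were called, and 0 of them were processed pseudogenes.

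The log2 folds of 55 single genes were followed, and 51 of 762 alternative values changed sign, 41 of them without 1 library. With library totals as the scale the value was 0.0072 for Tpt1-ps3, 0.0022 for Rps13-ps2, 0.016 for Rpl28, 0.013 for Rpsa and 0.016 for Eef1a1. With no filter it was 0.0011 for Eef1a1. In limma voom it was 0.99 for Gm12276 and 1.90 for Gm19046, and with the replicate block 0.44 and 1.39. Without 1 library the values ran from -0.15 to 0.025 for Rpl31-ps8, -0.10 to 0.039 for Tpt1-ps3, -0.14 to 0.010 for Gstp-ps, -0.0022 to 0.17 for Gm20008, -0.48 to 0.50 for Gm18981, -0.12 to 0.23 for Rpl38-ps2 and -0.20 to 0.083 for Mif-ps4. They ran from -0.17 to 0.045 for Rpsa-ps10, -0.083 to 0.0081 for Rps13-ps2, -0.34 to 0.69 for Gm36298, -0.55 to 1.38 for Gm10493, -1.17 to 1.16 for Gm12276 and -0.64 to 2.72 for Gm19046. For parents they ran from -0.057 to 0.038 for Rpl28, -0.034 to 0.0091 for Rpsa, -0.20 to 0.0082 for Mif, -0.13 to 0.084 for Psenen, -0.058 to 0.035 for Eef1a1 and -0.015 to 0.040 for Rps2, and from -0.026 to 0.13 for Rpl29, -0.020 to 0.085 for Tpt1, -0.0031 to 0.085 for Cycs, -0.043 to 0.11 for Rpl13a, -0.11 to 0.0075 for Apoo and -0.16 to 0.31 for Gm49359.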
